A study of Homo sapiens with 4 samples.

Results

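The APOBEC3 genes are a cluster of cytidine deaminase genes on human chromosome 22, and 7 members (APOBEC3A, APOBEC3B, APOBEC3C, APOBEC3D, APOBEC3F, APOBEC3G and APOBEC3H) were sought by symbol in RNA-seq tables of UM-UC-3 cells. Of these, 6 were listed in all 4 tables, among 24039 genes that all 4 tables list. APOBEC3H had no row in the tables used here and was not analysed here. UM-UC-3 is an established bladder cancer cell line. All 4 cultures received 75 nM siRNA with Lipofectamine RNAiMAX, and total RNA was taken at 48 h. The control library came from cells given a negative control siRNA, and each knockdown library from cells given a pair of siRNAs against hnRNPK, PTBP1 or the long noncoding RNA lncRNA-LBCS. There was 1 library for each condition, so how far 2 cultures of the same condition would differ is unknown for every difference given here. A transfected culture is a mixture of cells that took up more or less siRNA, and in RNA from whole cultures fewer cells expressing a gene and less RNA per cell cannot be told apart.

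APOBEC3 enzymes convert cytosine to uracil in single-stranded DNA. They are known as a defence against retroviruses and retrotransposons, whose DNA they mutate or whose reverse transcription they block. APOBEC3A and APOBEC3B can also act on the cell's own genome, and their mutation pattern is common in bladder cancer. Several members are interferon-inducible, and transcription of APOBEC3B is also known to respond to NF-kB and to be held down by the DREAM complex outside the proliferative phases of the cell cycle.

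Each member holds 1 or more copies of a zinc-binding domain, marked by a histidine and a glutamate codon that are separated by a single codon. These stretches of coding sequence are shown because their likeness bears on how well RNA-seq reads separate the members. They are 30 bases long, from the transcript with the longest coding sequence in GENCODE release 29, and capitals mark the histidine and glutamate codons. APOBEC3A and APOBEC3C hold 1 such domain, and APOBEC3B, APOBEC3D, APOBEC3F and APOBEC3G hold 2.
APOBEC3A: tacggccgcCATgcgGAGctgcgcttcttg
APOBEC3B first: cctcagtacCACgcaGAAatgtgcttcctc
APOBEC3B second: tacggccgcCATgcgGAGctgcgcttcttg
APOBEC3C: acccattgtCATgcaGAAaggtgcttcctc
APOBEC3D first: tttgagaacCACgcaGAAatgtgcttctta
APOBEC3D second: acccattgtCATgcaGAAaggtgcttcctc
APOBEC3F first: cctgagcacCACgcaGAAatgtgcttcctc
APOBEC3F second: acccattgtCATgcaGAAaggtgcttcctc
APOBEC3G first: cttaagtacCACccaGAGatgagattcttc
APOBEC3G second: gaaggccgcCATgcaGAGctgtgcttcctg

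The stretch of APOBEC3A was identical to the second one of APOBEC3B at 30 of 30 bases. That of APOBEC3C was identical to the second ones of APOBEC3D and APOBEC3F, while the second one of APOBEC3G matched APOBEC3A at 25 of 30 bases. Over whole annotated transcripts, stretches of 100 bases (the read length) were compared exactly with all GENCODE transcripts. In APOBEC3A 18.4% of the stretches also occurred in another gene, which was APOBEC3B alone. In APOBEC3B 25.1% were shared, mostly with APOBEC3A (18.8% of its stretches), and 1.53% were shared with APOBEC3F. The share was 13.3% in APOBEC3F, mostly with APOBEC3G (8.55% of its stretches). It was 5.05% in APOBEC3G, with APOBEC3F alone, and 0 of 2815 stretches in APOBEC3C. In APOBEC3D it was 80.2%, because GENCODE also lists a read-through gene, AL022318.4, that holds most of APOBEC3D and had no row in the tables used here. Shared with other APOBEC3 genes were 4.82% of the APOBEC3D stretches (APOBEC3F) and 3.92% (APOBEC3B). How the authors' counting assigned such reads is not given in the sources used here. The low values of APOBEC3A beside those of APOBEC3B are therefore uncertain. So are the low values of APOBEC3F beside those of APOBEC3G, and the values of APOBEC3D.

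By GENCODE release 29 on GRCh38, the 6 genes lie in tandem on the plus strand of chromosome 22. APOBEC3A (ENSG00000128383) spans 38952741 to 38992778, an interval that overlaps all but the end of APOBEC3B (ENSG00000179750, 38982347 to 38992804). APOBEC3C (ENSG00000244509) spans 39014083 to 39020352, APOBEC3D (ENSG00000243811) 39021113 to 39033276, APOBEC3F (ENSG00000128394) 39040604 to 39053910 and APOBEC3G (ENSG00000239713) 39077005 to 39087743. APOBEC3B-AS1, an antisense RNA over the end of APOBEC3B, was counted 3 times in control and once in si-hnRNPK; whether counting used the strand is not given in the sources used here.

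The libraries held between 54301152 (si-hnRNPK) and 70232674 (si-lncRNA-LBCS) reads on listed genes. HNRNPK was at 783.1 CPM (the tables' unit, reads scaled to a fixed library total) in control and 187.8 CPM in si-hnRNPK, and PTBP1 was at 280.0 CPM in control and 89.7 CPM in si-PTBP1. Of 14 white blood cell markers 5 were listed, with a summed level of 0.669 to 1.24 CPM per library. The T cell markers CD3D, CD3E and CD3G and the pan-leukocyte marker PTPRC had no row, and CSF1R in control, at 1.04 CPM, was the 1 value to reach 1 CPM. Of 12 epithelial and urothelial markers 9 had a row in the control table, and KRT8, KRT18 and KRT7 reached 1 CPM. The other listed markers of these 12, the urothelial genes UPK2 and GATA3 among them, stayed below 1 CPM in each library. The median-of-ratios scale of si-hnRNPK lay 0.11 below that of control on the log2 scale, and that of si-PTBP1 lay 0.13 above it.

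**Figure D1:**
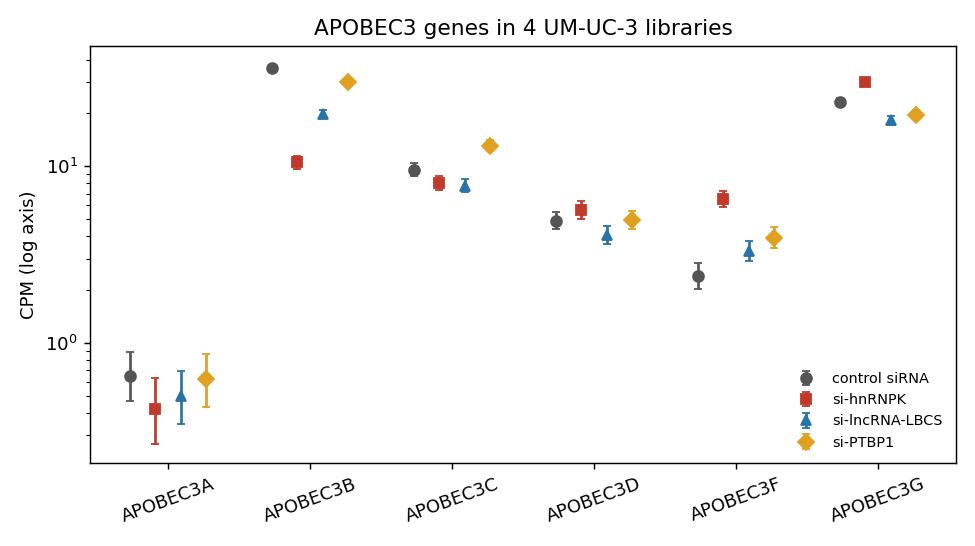
Level of each listed APOBEC3 gene in CPM (log axis) in the 4 libraries, 1 point per library, with bars for the 95% exact Poisson interval of the reads. APOBEC3B ranges from 10.5 CPM in si-hnRNPK to 35.9 CPM in control, APOBEC3G is highest in si-hnRNPK at 30.1 CPM, and APOBEC3A stays below 1 CPM in each library.

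In si-hnRNPK, APOBEC3B fell to 0.293 times its control level while APOBEC3F rose to 2.71 times, and the other 4 listed members did not reach the threshold. Changes are given on the log2 scale after adding 1 to each CPM value, which makes changes of weakly expressed genes look smaller. A gene was called at a difference of 1 or more if it reached 1 CPM in either library. Of the 6 listed members, 5 passed that filter, and APOBEC3A did not. In the comparison of si-hnRNPK with control, 1 member was called higher and 1 lower. Of all 13672 genes tested, 3.55% were called higher and 3.93% lower, 7.48% in all. Against control, 0 of 5 members were called in si-lncRNA-LBCS, where 0.378% of genes were higher and 1.01% lower, and 0 of 5 in si-PTBP1, where 2.92% were higher and 0.613% lower. Between si-hnRNPK and si-lncRNA-LBCS 0 of 5 members were called, beside 3.1% of genes higher and 2.51% lower (5.62% in all). Between si-hnRNPK and si-PTBP1 1 of 5 was called, lower, beside 2.37% higher and 6.05% lower (8.42% in all). An exact binomial test of the reads alone, at an adjusted value of 0.05, called 79.7%, 70.5% and 73.8% of genes in the 3 comparisons with control and 75.6% and 81% in those with si-lncRNA-LBCS and si-PTBP1, so passing it sets a gene little apart. With median-of-ratios scaling, the threshold calls of si-hnRNPK against control shift from 486 higher and 537 lower genes to 610 and 374. Each ratio is followed by its 95% interval (Clopper-Pearson, exact), which covers counting error only.

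APOBEC3B, a nuclear deaminase with 2 domains, had 2203 reads in control, 1389 in si-lncRNA-LBCS, 1670 in si-PTBP1 and 572 in si-hnRNPK. These are 35.9, 19.8, 29.8 and 10.5 CPM. The control library was the highest and si-hnRNPK the lowest, and no 2 of the 4 counting intervals overlapped. Its change in si-hnRNPK was -1.68 (interval -1.80 to -1.56), and 30 of the 13672 genes tested had a lower value. Under median-of-ratios scaling it was -1.57. In si-lncRNA-LBCS APOBEC3B was at 0.551 times control (0.515 to 0.590), a difference of -0.83 that lay outside counting error and short of the threshold. There 2.01% of the 13492 genes tested had a lower value. In si-PTBP1 it was at 0.830 times control (0.778 to 0.885), a difference of -0.26. Against the geometric mean of the other 3 libraries, APOBEC3B differed by -0.18 in si-lncRNA-LBCS and by 0.57 in si-PTBP1, where the direction turned. All 3 comparisons share the control library, in which APOBEC3B was highest. Compared with the other knockdown libraries instead, APOBEC3B in si-hnRNPK was at 0.533 times si-lncRNA-LBCS (0.482 to 0.588) and 0.354 times si-PTBP1 (0.321 to 0.389). The difference from si-PTBP1 was -1.42, past the threshold, as were 6.05% of the 13895 genes tested in that direction. The difference from si-lncRNA-LBCS was -0.85, short of it.

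APOBEC3F, a deaminase with 2 domains that restricts retroviruses in the cytoplasm, had 147 reads in control, 233 in si-lncRNA-LBCS, 221 in si-PTBP1 and 353 in si-hnRNPK. These are 2.40, 3.32, 3.94 and 6.50 CPM. Here control was the lowest library and si-hnRNPK the highest, and the intervals of si-lncRNA-LBCS and si-PTBP1 overlapped. The change in si-hnRNPK was 1.14 (0.90 to 1.40), so the interval reaches below the threshold of 1. Against the geometric mean of the other 3 libraries the difference was 0.85, and the call was lost. APOBEC3F stood at 1.39 times control in si-lncRNA-LBCS (1.12 to 1.71) and 1.65 times in si-PTBP1 (1.33 to 2.04), both short of the threshold. Against the geometric mean of the other 3 libraries these differences became -0.21, with the direction turned, and 0.045.

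APOBEC3G, the best known retroviral restriction factor of the family, had 1415 reads in control, 1275 in si-lncRNA-LBCS, 1096 in si-PTBP1 and 1633 in si-hnRNPK. These are 23.1, 18.2, 19.5 and 30.1 CPM. It was highest in si-hnRNPK, and si-lncRNA-LBCS and si-PTBP1, both below control, had overlapping intervals. Its difference from control was 0.37 in si-hnRNPK (0.27 to 0.47), -0.33 in si-lncRNA-LBCS and -0.23 in si-PTBP1, none of them past the threshold. Relative to the other knockdown libraries, APOBEC3G in si-hnRNPK was at 1.66 times si-lncRNA-LBCS (1.54 to 1.78) and 1.54 times si-PTBP1 (1.42 to 1.66).

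APOBEC3C, a deaminase with 1 domain, had 587 reads in control, 543 in si-lncRNA-LBCS, 733 in si-PTBP1 and 436 in si-hnRNPK, or 9.56, 7.73, 13.1 and 8.03 CPM. The si-PTBP1 library was the highest, at 1.37 times control (1.22 to 1.53), and the difference of 0.41 was short of the threshold. APOBEC3D, a further member with 2 domains, varied least among those above 1 CPM, at 4.92, 4.10, 4.98 and 5.65 CPM in the same order. Its ratio to control had an interval that includes 1 in si-hnRNPK (0.977 to 1.35) and in si-PTBP1 (0.856 to 1.19). In si-lncRNA-LBCS the ratio was 0.833 (0.707 to 0.983), short of the threshold. APOBEC3A, the member with the strongest deaminase activity, had 40 reads in control, 35 in si-lncRNA-LBCS, 35 in si-PTBP1 and 23 in si-hnRNPK. All of its values lay between 0.424 and 0.652 CPM, and the interval of each ratio to control includes 1 (0.371 to 1.11 in si-hnRNPK). A change of APOBEC3A was not detectable at this depth.

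**Figure D2:**
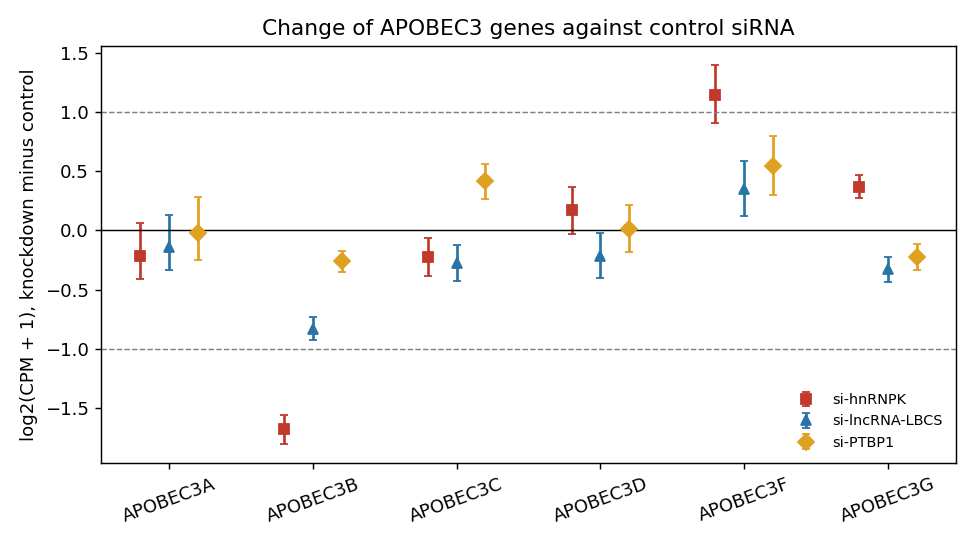
Difference in log2(CPM + 1) between each knockdown library and control for the 6 listed genes, with 95% counting intervals; dashed lines mark the threshold of 1 in both directions. In si-hnRNPK, APOBEC3B lies at -1.68 and APOBEC3F at 1.14, and no point of the other 2 knockdown libraries crosses a line.

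Since opposite changes occurred within the cluster, the make-up of the summed APOBEC3 reads was compared next. APOBEC3B held 46.9% of them in control (45.5% to 48.4%), 41.4% in si-PTBP1, 36.9% in si-lncRNA-LBCS and 17.2% in si-hnRNPK (15.9% to 18.5%). APOBEC3G held 30.1% in control and 49.1% in si-hnRNPK (47.4% to 50.8%), and APOBEC3F 3.13% and 10.6%. There were 0.642 reads of APOBEC3G for each read of APOBEC3B in control (0.600 to 0.687) and 2.85 in si-hnRNPK (2.59 to 3.15). The ratio was 0.918 in si-lncRNA-LBCS and 0.656 in si-PTBP1. A ratio of 2 genes within a library does not depend on the scaling between libraries. The 6 genes together were at 76.5 CPM in control and 61.2 CPM in si-hnRNPK, or 0.800 times control (0.765 to 0.837). Without APOBEC3B, the other 5 together were at 1.25 times control in si-hnRNPK (1.18 to 1.32), 0.833 times in si-lncRNA-LBCS and 1.04 times in si-PTBP1 (0.982 to 1.10).

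**Figure D3:**
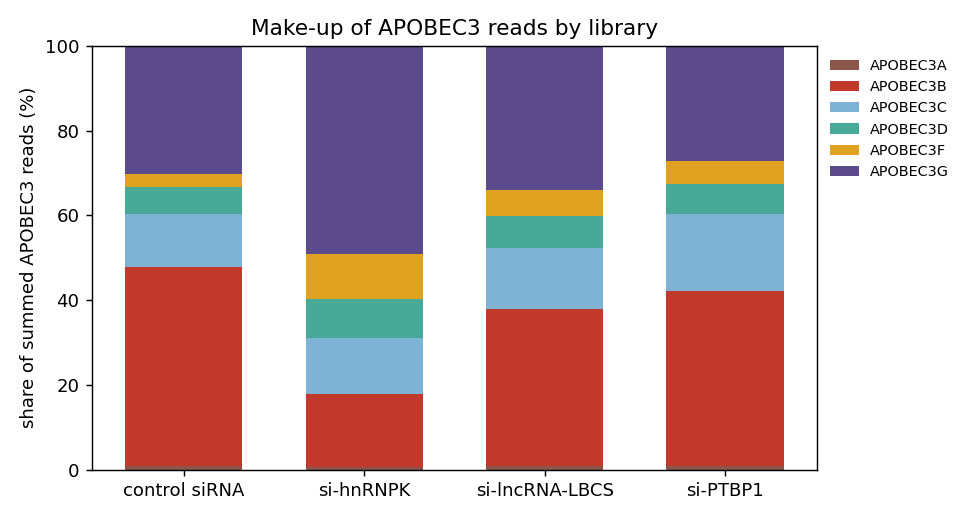
Share of the summed APOBEC3 reads held by each of the 6 listed genes, in percent, 1 bar per library. The APOBEC3B segment shrinks from 46.9% in control to 17.2% in si-hnRNPK, where APOBEC3G holds 49.1%.

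Levels of different genes were compared per kilobase of annotated exon. In control the order was APOBEC3B at 18.9 CPM per kilobase, APOBEC3G at 4.24, APOBEC3C at 3.39, APOBEC3D at 1.95, APOBEC3F at 0.739 and APOBEC3A at 0.276. No neighbours in that order had overlapping counting intervals. In si-hnRNPK, APOBEC3B at 5.56 and APOBEC3G at 5.53 CPM per kilobase had overlapping intervals, as did APOBEC3D at 2.24 and APOBEC3F at 2.01. The exons of APOBEC3G sum to 5.44 kb because retained introns are annotated, whereas its longest protein-coding transcript has 1.83 kb. Per kilobase of the longest protein-coding transcript, a length chosen after seeing the data, APOBEC3B was at 19.5 and APOBEC3G at 12.6 CPM in control. On that scale APOBEC3G came first in si-hnRNPK, at 16.4 CPM per kilobase (15.6 to 17.2), with APOBEC3B at 5.71 (5.25 to 6.20). The first place of APOBEC3B in si-hnRNPK therefore depends on the length used, while its rank in the other 3 libraries stayed first. In si-lncRNA-LBCS, however, the intervals overlapped on the coding length, with APOBEC3B at 10.7 (10.2 to 11.3) and APOBEC3G at 9.90 (9.36 to 10.5).

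The 3 genes whose changes over the 3 knockdown libraries lay nearest to those of APOBEC3B, among 9451 genes with a symbol at 10 CPM or more in any library, were CNDP2, PLK1 and FOXM1. Their distances (Euclidean, on the log2 scale) were 0.20, 0.26 and 0.28, and 1 gene lay within 0.25. PLK1, a mitotic kinase, was at 74.0 CPM in control and 20.6 CPM in si-hnRNPK. CNDP2, a dipeptidase, was at 51.6 and 16.5 CPM. For APOBEC3F the nearest were TPM1-AS, C3orf52 and BCL2L13, at distances from 0.04 to 0.11, with 13 genes within 0.25. The nearest genes were SESN2, DIPK1A and LPXN for APOBEC3G, CELSR1, SLC9A7 and VPS13B for APOBEC3C and FAM20B, NDST1 and UBOX5 for APOBEC3D, where 60, 234 and 375 genes lay within 0.25. With 3 differences that share a control, such likeness is a description and gives no evidence of a link.

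Of 7 genes that flank the cluster 6 were tested in si-hnRNPK, with 1 called higher, 0 called lower and a median of 0.35. Over all genes 3.55% were higher and 3.93% lower, with a median of -0.11, so a count of 0 lower among 6 is near that background. CBX6, a Polycomb protein gene on the APOBEC3A side, was at 102.6 CPM in control and 164.8 CPM in si-hnRNPK. NPTXR, a neuronal pentraxin receptor gene also on the APOBEC3A side, was at 9.29 and 6.22 CPM, a difference of -0.51. CBX7, on the far side of the cluster, was at 7.71 and 9.15 CPM. The gene called higher was DNAL4, a dynein light chain gene that overlaps SUN2 on the same strand, with 4.86 CPM in control and 14.3 CPM in si-hnRNPK.

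**Figure D4:**
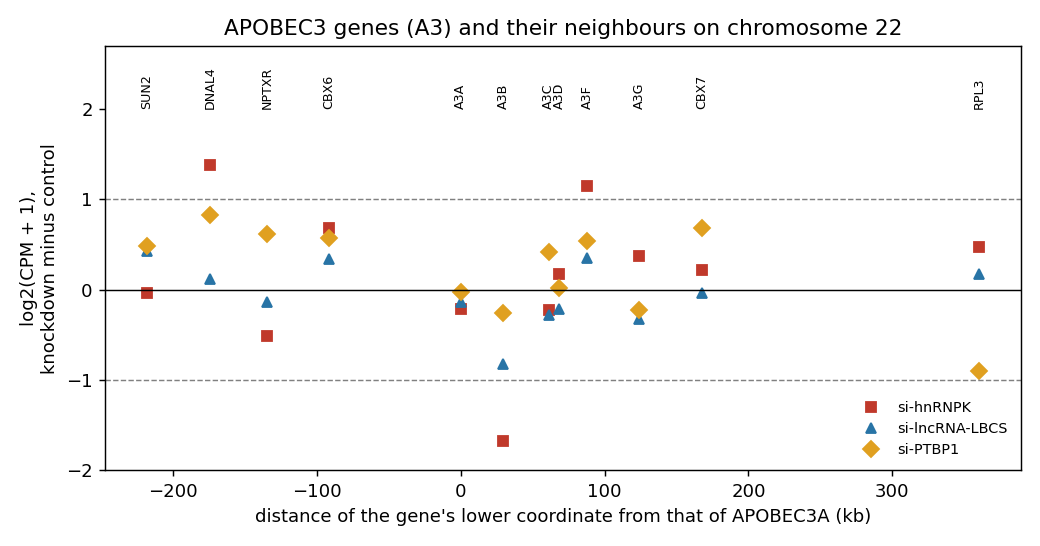
Difference in log2(CPM + 1) from control for the APOBEC3 genes (A3) and neighbouring genes, against the distance in kb of each gene's lower coordinate from that of APOBEC3A; 1 point per gene and knockdown library. The lowest point of si-hnRNPK is APOBEC3B at -1.68, and among the neighbours CBX6 and CBX7 lie above 0 while NPTXR lies at -0.51.

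Interferon signalling genes, which carry the signal that induces several APOBEC3 members, were compared as a list. In si-hnRNPK 5 of 10 were called higher and 0 lower, with a median difference of 0.90, against 3.55% higher and a median of -0.11 for all genes. Among those called, the transcription factor genes STAT2 (36.7 to 134.0 CPM), IRF7 (5.30 to 82.1 CPM), IRF1 (29.2 to 83.6 CPM) and IRF9 (2.26 to 6.72 CPM) rose. Of the receptor kinases, JAK1 was at 298.3 and 441.5 CPM and TYK2 at 38.6 and 45.9 CPM. In si-lncRNA-LBCS and si-PTBP1, 0 of 10 were called, where 1.39% and 3.53% of all genes tested were called in either direction.

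Other factors that restrict retroviruses showed 5 of 12 called higher and 0 lower in si-hnRNPK, with a median of 0.60, beside 3.55% higher and a median of -0.11 over all genes. Of those called, BST2, IFITM1 and MX2 were below 1 CPM in control and passed the filter only through si-hnRNPK. A gene that low in control is tested only if it rises, so this count and median are partly set by the filter. TRIM5, which binds the retroviral capsid, rose from 35.1 to 91.3 CPM, and IFITM3, which blocks virus entry, from 62.0 to 149.2 CPM. BST2, which tethers budding virus, had 8 reads in control and 267 in si-hnRNPK, and IFITM1 had 6 and 181. MX2, which blocks nuclear entry of HIV, had 3 reads in control and 387 in si-hnRNPK, a ratio of 145.8 with a counting interval from 49.5 to 710.1. SAMHD1, which depletes nucleotides for reverse transcription, was at 35.2 and 58.2 CPM, a difference of 0.71. BST2, IFITM1 and MX2 did not pass the filter in the other 2 knockdown libraries. There 0 of 9 tested genes were called, near the 1.39% and 3.53% of all genes. ADAR, the interferon-inducible RNA adenosine deaminase, was at 192.6 CPM in control and 327.0 CPM in si-hnRNPK, a difference of 0.76, and ADARB1 had a difference of 0.09. APOBEC2 and APOBEC4, family members outside the cluster, were listed in control, both below 1 CPM.

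The DREAM and MYBL2-FOXM1 list, the cell cycle regulators by which APOBEC3B transcription is known to be restrained or raised, went the other way. In si-hnRNPK 3 of its 10 tested genes were called lower and 0 higher, with a median of -0.52, where 3.93% of all genes were lower and their median was -0.11. FOXM1, a transcription factor of G2 and mitosis, fell from 102.1 to 29.5 CPM and MYBL2 from 39.8 to 18.6 CPM. LIN9, a subunit shared by DREAM and the MYBL2 complex, fell from 22.8 to 10.5 CPM. The differences of MYBL2 and LIN9 were -1.05 and -1.06. Both passed the threshold by less than the 0.11 between the median-of-ratios scales of si-hnRNPK and control, so these calls depend on the scaling. E2F4, the DREAM transcription factor, was at 107.6 and 106.3 CPM, RBBP4 at 106.2 and 104.9 CPM and TFDP1 at 155.3 and 117.1 CPM. In si-lncRNA-LBCS and si-PTBP1, 0 of the 10 were called, near the shares of 1.39% and 3.53% over all genes.

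The NF-kB list had 3 of 10 genes called higher in si-hnRNPK and 0 lower, with a median of 0.20, beside 3.55% higher and -0.11 over all genes. The subunit gene RELB rose from 28.4 to 70.6 CPM, and the inhibitor genes NFKBIA and TNFAIP3 rose from 243.3 to 494.7 CPM and from 15.3 to 38.2 CPM. NFKB1, NFKB2 and CHUK had differences of 0.30, -0.06 and -0.03. The lowest value of the list was -0.94, for MAP3K14, short of the threshold. In si-lncRNA-LBCS 2 of 10 were called lower, beside 1.01% of the genes tested. NFKB2, the subunit of the noncanonical pathway, fell from 83.3 CPM with a difference of -1.69, and NFKBIA fell with a difference of -1.44. In si-PTBP1 0 of 10 were called, near the share of 3.53% over all genes, and NFKB2 had a difference of -0.94.

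**Figure D5:**
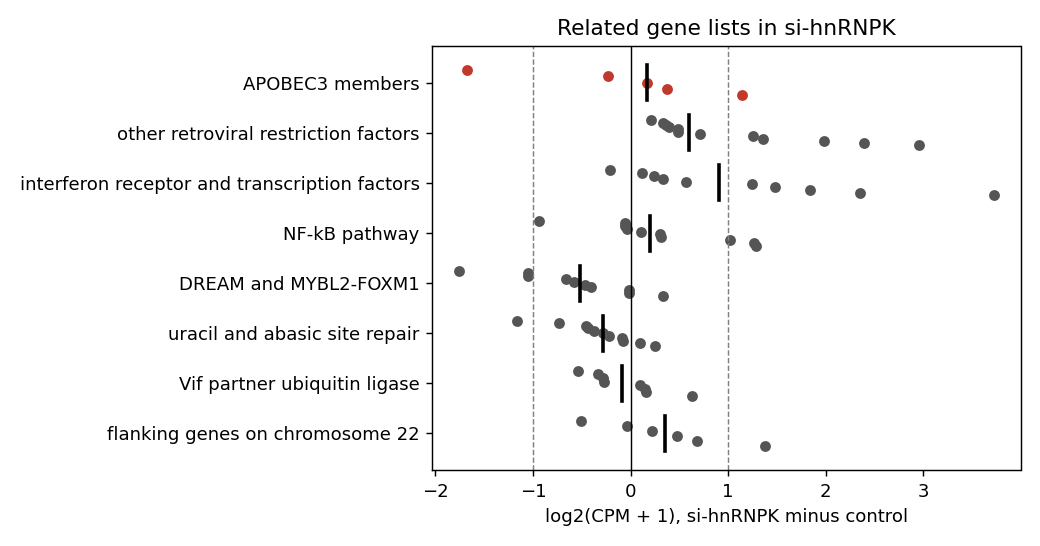
Difference in log2(CPM + 1) between si-hnRNPK and control for each tested gene of 8 lists (1 point per gene), with the list's median as a black bar and dashed lines at the threshold of 1. The interferon list has a median of 0.90 and the DREAM and MYBL2-FOXM1 list one of -0.52, while APOBEC3 genes lie between -1.68 and 1.14.

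Genes that handle the product of APOBEC3 enzymes were compared as well. Of 11 genes for removal of uracil and abasic sites, 1 was called lower and 0 higher in si-hnRNPK, with a median of -0.28, a count near the 3.93% lower over all genes. That gene was APEX1, the abasic site endonuclease, which fell from 102.4 to 45.1 CPM. APEX1 was also called lower in si-lncRNA-LBCS, with a difference of -1.03, just past the threshold. It was the 1 gene of the list called there, where 1.01% of all genes were lower. UNG, the main uracil glycosylase, was at 58.9 and 63.0 CPM in control and si-hnRNPK, a difference of 0.10. TDG, a thymine and uracil glycosylase, was called higher in si-PTBP1, with a difference of 1.10. No other gene of the list was called there, where 2.92% of all genes were higher and 0.613% lower. TDG passed the threshold by less than the 0.13 between the median-of-ratios scales of si-PTBP1 and control, so its call depends on the scaling. The host partners of HIV Vif, the viral protein that directs APOBEC3 proteins to degradation, had 0 of 8 genes called in any knockdown library, which is near the background of 7.48%, 1.39% and 3.53% of all genes called in si-hnRNPK, si-lncRNA-LBCS and si-PTBP1. Their differences in si-hnRNPK ran from -0.54 for CBFB to 0.63 for RNF7. The cofactor of APOBEC1 that was tested, SYNCRIP, was at 429.9 and 335.6 CPM.

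An siRNA can also lower mRNAs that pair with its seed, so the siRNAs of the knockdown with both calls are shown with the part that holds the seed match in capitals. These are the sense strands without their overhangs.
si-hnRNPK siRNA 1: ggguuguagagUGCAUAAa
si-hnRNPK siRNA 2: gccuccaucuaGAAGAGAu
Both matched HNRNPK over their whole length. The seed matches TGCATAA and GAAGAGA, searched on the mRNA strand, were each found in 0 places in the longest annotated 3' UTR and coding sequence of APOBEC3B, APOBEC3F and APOBEC3G. TGCATAA occurred in the longest 3' UTR of 11.4% and GAAGAGA in that of 23.0% of 11942 expressed genes. Among the members, 1 match was found, to siRNA 1 in the coding sequence of APOBEC3D, in the site gctcctcaggcTGCATAAg, which paired at 10 of 19 bases. Seeds of the other knockdowns also matched members. For si-PTBP1, siRNA 2 matched the coding sequence of APOBEC3G in 2 places and siRNA 1 the 3' UTR of APOBEC3A. For si-lncRNA-LBCS, siRNA 2 matched the 3' UTR of APOBEC3A and the coding sequences of APOBEC3C, APOBEC3D and APOBEC3F. Whether these sites act was not tested. The absence of TGCATAA and GAAGAGA from APOBEC3B, APOBEC3F and APOBEC3G says nothing of other ways in which the siRNAs could act.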

How the data were processed

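RNA-seq libraries of 4 UM-UC-3 cultures were analysed, 1 per condition, so no p-value across genes is given and sampling of cultures is not covered by any interval. The authors sequenced total RNA as 100-base paired-end reads and deposited 1 table per library with Ensembl identifiers and CPM. The submitters' processing notes name hg19; the aligner, counting method, annotation and filters are not given in the sources used here. Coordinates are from GENCODE release 29 (GRCh38), matched by identifier.

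Every deposited CPM value above the placeholder for genes without reads was a whole multiple (within 0.01 of a read) of the worth of 1 read (100% of such values), which gave reads per gene. At these depths 3 reads are 0.0427 to 0.0552 CPM. Differences in log2(CPM + 1) were called at 1 for genes at 1 CPM or more in either library and listed in both. Calls here are past a fold, not past a test. Alternatives changed the pseudocount (0.1), the filter (none, or 5 CPM), the threshold (1.5-fold), the scaling (median of ratios), the reference (geometric mean of the other 3 libraries) and the gene length. A binomial test of recovered reads, exact and adjusted after Benjamini and Hochberg, was also run; it compares libraries and not conditions. The members and lists were chosen with earlier results of these data known. Named are all members, list genes past the threshold (some items are not reported here), up to 4 list genes of highest control CPM among transcription factors and cofactors, and the 3 genes nearest in pattern to each member at 1 CPM or more. APOBEC2, APOBEC4, CBX6, CBX7, NPTXR, SAMHD1, ADAR, ADARB1, UNG, CBFB, RNF7, MAP3K14 and NFKB2 in si-PTBP1 were named in addition, after their values were seen. Scripts were tested on simulated data. Tables were handled with pandas 2.3.3 in Python 3.11.15, intervals came from scipy 1.17.1, adjustment from statsmodels 0.14.6, and figures from matplotlib 3.10.9.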

Additional observations from a re-analysis of the deposited data

How the results depend on the processing

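The call of APOBEC3B in si-hnRNPK against control held under each alternative run, with differences from -1.76 (pseudocount of 0.1) to -1.31 (geometric mean of the other 3 libraries). That of APOBEC3F was 1.40 with a pseudocount of 0.1, and with the geometric mean it was lost at 0.85. For APOBEC3G in si-hnRNPK, median-of-ratios scaling gave 0.48 and the geometric mean 0.55. With a pseudocount of 0.1, APOBEC3A was -0.52 in si-hnRNPK against control and -0.47 against si-PTBP1. With the geometric mean as reference, APOBEC3B was -0.18 in si-lncRNA-LBCS and 0.57 in si-PTBP1, a change of sign, APOBEC3F was -0.21 in si-lncRNA-LBCS, also a change of sign, and 0.045 in si-PTBP1, and APOBEC3C was 0.58 in si-PTBP1. That reference contains the si-hnRNPK library itself. With median-of-ratios scaling, APOBEC3B was -0.38 and APOBEC3G -0.35 in si-PTBP1 against control, APOBEC3D in si-PTBP1 went from 0.01 to -0.09, and in si-hnRNPK against si-PTBP1 APOBEC3B was -1.19, APOBEC3C -0.42 and APOBEC3G 0.83.

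The counts of called genes, higher and lower, were 486 and 537 in si-hnRNPK, 51 and 136 in si-lncRNA-LBCS and 404 and 85 in si-PTBP1. A pseudocount of 0.1 gave 790 and 995, 165 and 353, and 793 and 173. A threshold of 1.5-fold gave 1352 and 2165, 559 and 774, and 1673 and 432. The geometric mean gave 317 and 356 in si-hnRNPK, 6 higher in si-lncRNA-LBCS and 234 higher in si-PTBP1, and median-of-ratios scaling gave 256 and 132 in si-PTBP1. The cause was not tested. Dropping the filter, a filter of 5 CPM, and requiring the binomial test beside the threshold left each count within 1.5 times; the binomial test alone called most genes, as given above. By either transcript length in place of all exons, 2 of 6 members kept their rank per kilobase in si-hnRNPK and 4 of 6 in si-PTBP1, while 6 of 6 kept it in the other libraries. No paired analysis was possible because each condition has 1 library.

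Depth limits APOBEC3A, with 23 to 40 reads per library, sequence shared with other members limits APOBEC3A, APOBEC3B and APOBEC3F, and sequence shared with a read-through gene limits APOBEC3D. Without replicates, no count above separates the siRNA from the culture.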
